A study of Mus musculus with 8 samples.

Results

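Cd74, Ctss, H2-DMb1, Cd40 and Pdia3 are 5 genes of antigen presentation and costimulation, of 20824 named genes in the deposited peak lists. They were selected on a measured value, a peak of the transcription factor IRF5 annotated to their promoter in both control libraries and in neither CpG library. That pattern is therefore described here without a test. A peak belonged to a gene when the authors' annotation named the gene as its nearest one or put the peak in the gene's promoter class. By this rule the 5 genes held 39 peaks in the 4 libraries, 14 and 19 in the control libraries, 1 in CpG 1 and 5 in CpG 2. In each control library 6 of these were promoter peaks, and the CpG libraries had none because of how the genes were chosen. The contrast in peak number is thus partly set by the choice. IRF5 was mapped by CUT&Tag, in which an antibody guides a transposase to DNA beside the target protein, in wild-type (wt) macrophages grown from mouse bone marrow. All cells received either PBS, called control, or CpG, a DNA ligand of the receptor TLR9 whose dose and duration no label states. Each condition had 2 anti-IRF5 libraries, and nothing in the labels says whether these came from separate animals or cultures. A comparison of 2 with 2 libraries cannot give a two-sided exact p under 0.333.

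Macrophages show peptides to T cells on MHC molecules. Class II molecules are assembled with the invariant chain, encoded by Cd74, which fills their peptide groove and is cut down in endosomes by the protease cathepsin S, encoded by Ctss. H2-DM, of which H2-DMb1 encodes a beta chain, then exchanges the remaining fragment for a peptide. Class I molecules are loaded in the endoplasmic reticulum, where the thiol oxidoreductase encoded by Pdia3 (ERp57) is part of the loading complex. CD40 is a TNF receptor family member through which T cells carrying CD40 ligand activate macrophages, dendritic cells and B cells. IRF5 is a transcription factor that Toll-like receptors activate through the adaptor MyD88.

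The lists of control 1, control 2, CpG 1 and CpG 2 had 29226, 37315, 13553 and 25851 peaks on assembled chromosomes. They give no read totals, so depth is unknown. A promoter peak was found at 24.1%, 28.6%, 10.4% and 22.2% of all named genes in the same order. CpG 1 had the fewest peaks and the fewest bound genes. Each control library was called against an IgG library of the control and each CpG library against an IgG library of the CpG condition, judged by the names of the lists, so background and condition cannot be told apart. Of 7 macrophage markers named in the lists, 5, 6, 3 and 5 had a promoter peak in the same order, among them Adgre1 and Cd68 in every library. Of 5 dendritic cell markers the numbers were 2, 3, 1 and 2, with Batf3 in the control libraries, Itgax in control 2 and CpG 2 and Xcr1 in every library. Of 3 B cell markers none had one. T and NK cell markers numbered 0, 1, 1 and 1 of 3, the gene being Klrb1c, and neutrophil markers 0, 1, 0 and 0 of 4, the gene being Elane. The part of other cells in the results was not tested.

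The RefSeq promoter table of GRCm38.p6 held 3 of the 5 genes, Ctss, H2-DMb1 and Pdia3. The 250 bases before each start are shown because the promoter class of the peaks is defined by the start. All are on the plus strand and run 5′ to 3′. Capitals mark every match to the motifs searched.
Ctss, chr3:95526536-95526785: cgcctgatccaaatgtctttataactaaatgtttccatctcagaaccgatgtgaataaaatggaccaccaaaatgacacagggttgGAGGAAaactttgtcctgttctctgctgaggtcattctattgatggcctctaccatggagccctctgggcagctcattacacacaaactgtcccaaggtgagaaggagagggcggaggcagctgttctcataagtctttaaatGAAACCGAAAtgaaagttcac
H2-DMb1, chr17:34152941-34153190: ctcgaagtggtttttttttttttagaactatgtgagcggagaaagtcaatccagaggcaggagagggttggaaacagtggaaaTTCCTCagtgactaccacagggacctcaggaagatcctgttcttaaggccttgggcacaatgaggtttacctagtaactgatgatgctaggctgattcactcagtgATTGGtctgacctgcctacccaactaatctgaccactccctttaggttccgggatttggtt
Pdia3, chr2:121413652-121413901: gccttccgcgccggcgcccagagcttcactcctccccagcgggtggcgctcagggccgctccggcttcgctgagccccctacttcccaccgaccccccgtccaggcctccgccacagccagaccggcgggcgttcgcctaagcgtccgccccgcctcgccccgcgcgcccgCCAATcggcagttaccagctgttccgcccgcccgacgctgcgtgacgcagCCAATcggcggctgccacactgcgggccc

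Motifs were searched on both strands of the 300 bases from 250 before to 50 after the start. The tandem site of interferon regulatory factors, written as GAAA, any 2 bases and GAAA again, was found only in Ctss of the 3, as GAAACCGAAA at bases -21 to -12. It was present in 3.44% of the 32851 promoters of the table. The ETS core GAGGAA was found at -164 to -159 and, on the other strand, at 1 to 6 in Ctss, and on the other strand at -167 to -162 in H2-DMb1, against 28.3% of all promoters. CCAAT, the Y box that is part of MHC class II promoters, was found on the other strand at -61 to -57 in H2-DMb1. In Pdia3 it was found at -79 to -75 and -29 to -25, and 37.4% of all promoters held it. The composite of GGAA, any 2 bases and GAAA (2.72% of promoters), the NF-kB site GGGA, any 4 bases and CC (20.7%) and the ER stress letters CCACG (32.8%, with CCAAT in 11.7%) had no match in the 3. The ETS core, the composite and the tandem site can overlap in their letters. The GC content of the 300 bases was 44.0% in Ctss, 47.3% in H2-DMb1 and 75.7% in Pdia3. Matches are letters in a window of another annotation, and the start used there could not be set against the start used in the peak lists. Counted from the start in the lists, both Ctss summits lay farther upstream than the bases shown, at -513 and -606 bp, and the control 2 peak ended at -150 bp. The Ctss tandem site, at -21 to -12 from the RefSeq start, is therefore not shown to lie in the peak of control 2 or near either summit.

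All 5 genes had a promoter peak in control 1 and in control 2, and none had one in CpG 1 or CpG 2. Among all named genes this pattern, called control-only, was found at 4.36%, and the opposite, called CpG-only, at 0.610%. Since the genes were chosen by the pattern, the contrast with 4.36% is not a result. Of the 3753 named genes with a promoter peak in both control libraries, 33.6% also had one in CpG 1, 72.7% in CpG 2 and 24.2% in neither. In the authors' deposited lists of whole conditions, all 5 again had a promoter peak in the control list and none in the CpG list, as did 12.9% of named genes. How those lists were combined is not stated, and they are no further replicate. Each list was also cut to its 13553 strongest peaks by fold enrichment (defined below), the number of CpG 1. In the cut lists 2 of the 5 genes (Cd74 and Cd40) were control-only. Over all named genes 437 were then control-only and 315 CpG-only, in place of 908 and 127. The 2 directions were thus closer than in the full lists, with 1.51% of all named genes CpG-only. By any nearest peak 2 of the 5 were control-only, Cd40 and Pdia3, against 8.10% of all named genes. For Pdia3 this rests on the annotation, since CpG 2 had a peak over its start with Catsper2 as nearest gene.

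**Figure D1:**
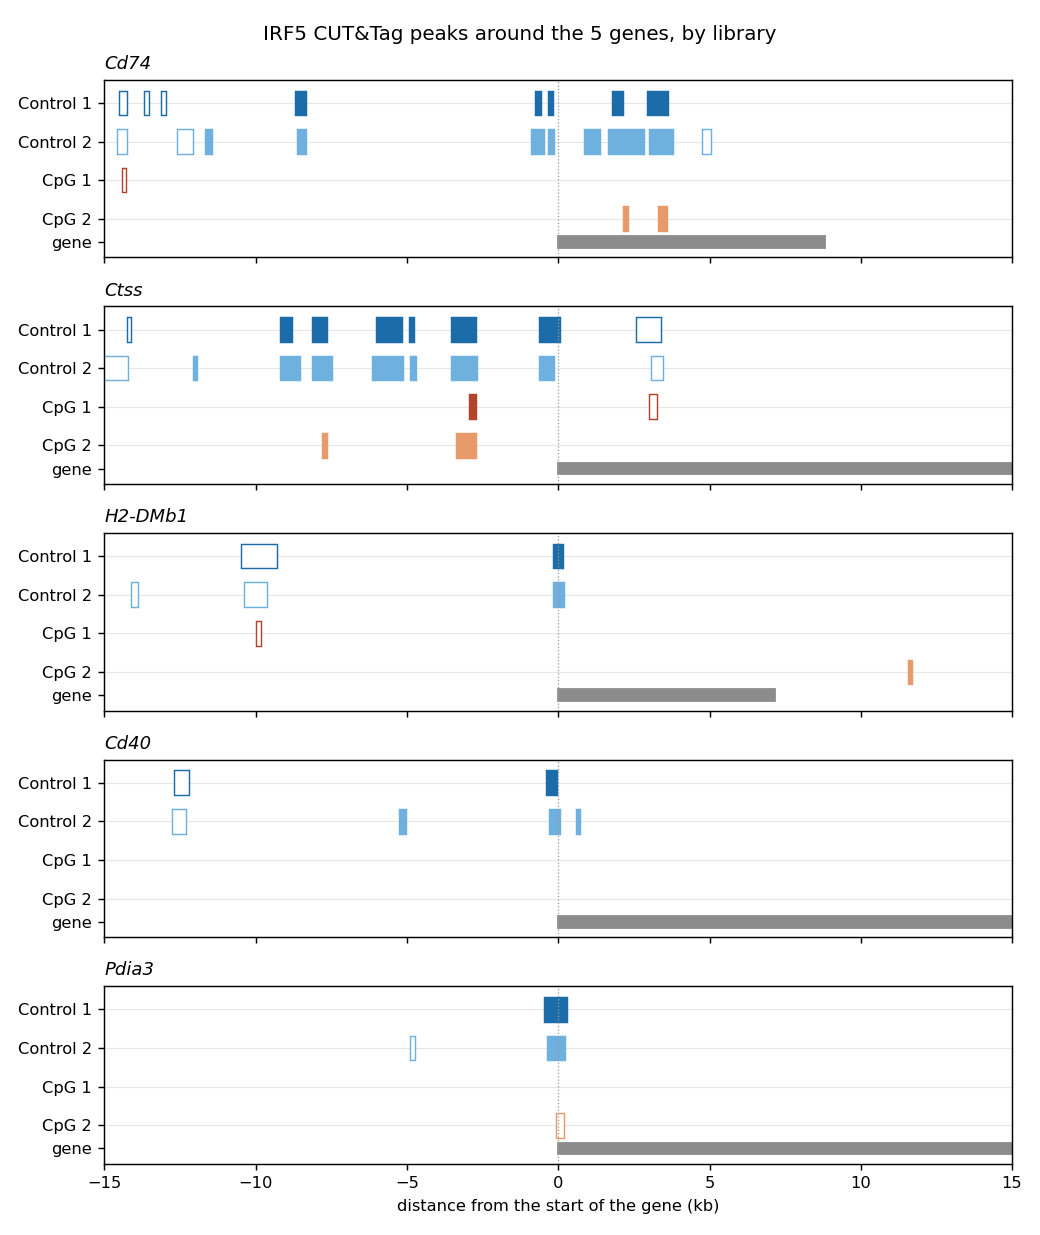
Peaks from 15 kb before to 15 kb after the start of each gene (horizontal axis, kb), with a line for each library. Filled boxes are peaks assigned to the gene, open boxes are peaks with another nearest gene, and the grey bar is the gene. All 5 starts lie in or within 1 kb of control peaks, and the CpG 2 peak at the start of Pdia3 is open because its nearest gene is Catsper2.

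Each peak has a pileup, the number of fragments over its summit, and a fold enrichment, the pileup over a local background with 1 added to each. Both are the authors' values and are read only within a list. The percentile below is the share of a list's peaks with the same or a lower fold enrichment. Because the lists differ in length, a difference in percentile between lists is not read as a change. Positions are in the coordinates of the lists, and no source used here names their genome build.

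Cd74 (ENSMUSG00000024610, chromosome 18, 60936919 to 60945724, plus strand) had a pair of promoter peaks in each control library. The upstream peak, centred at -669 bp from the start in control 1 and at -688 bp in control 2, had pileups of 16 and 25 fragments and fold enrichments of 6.31 and 11.5. These were at the 62.7 and 89.2 percentile of their lists. The nearer peak was centred at -257 and -229 bp and was weaker, with pileups of 9 and 12 and fold enrichments of 4.12 and 5.55 (percentiles 12.3 and 39.2). It began at the same base, -330 from the start, in both libraries. Neither CpG library had a peak of any annotation over these regions.

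H2-DMb1 (ENSMUSG00000079547, chromosome 17, 34372045 to 34379204, plus strand) had 1 peak in each control library, and it lay across the start. Its centre was at -13 bp in control 1 and 14 bp in control 2, with a length of 356 and 361 bp. The pileups, 12 and 11, were the lowest of the strongest promoter peaks of the 5 genes. Fold enrichments were 6.54 and 5.96 (percentiles 67.0 and 48.2). The only peak with H2-DMb1 as nearest gene in a CpG library was in CpG 2, centred 11.63 kb after the start and beyond the end of the gene, with a pileup of 11 and a fold enrichment of 4.16 (percentile 10.8). H2-DMb1 and its neighbour H2-DMb2 are paralogues, and the sources do not say how reads shared between them were placed.

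Ctss (ENSMUSG00000038642, chromosome 3, 95434096 to 95463714, plus strand) had 1 promoter peak in each control library. In control 1 it spanned -630 to 70 bp, with a pileup of 29 and a fold enrichment of 14.3. It ranked 656 of 29226 peaks there, at the 97.8 percentile. In control 2 it began at the same base but ended at -150 bp, with a pileup of 13 and a fold enrichment of 6.68, at the 59.2 percentile. The peak of control 1 thus covered the start, and that of control 2 ended before it.

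Pdia3 (ENSMUSG00000027248, chromosome 2, 121244255 to 121269168, plus strand) had 1 broad promoter peak of 763 bp in control 1 and 593 bp in control 2, which the annotation also put in the promoter of the neighbouring Catsper2. Pileups were 30 and 40, and fold enrichments 4.48 and 9.24 (percentiles 18.2 and 81.3). CpG 2 had a peak at the same place, from 121244170 to 121244435, with a pileup of 31 and a fold enrichment of 5.31 (percentile 33.6). Its centre lay 0.05 kb after the Pdia3 start, and the annotation listed it as exon and 5' untranslated region of Pdia3 and as promoter of Catsper2. At Pdia3 the control libraries and CpG 2 thus differed in the annotated class of the peak, while all 3 had one over the start. CpG 1 had no peak of any annotation there.

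Cd40 (ENSMUSG00000017652, chromosome 2, 164897546 to 164914868, plus strand) had 1 promoter peak in each control library, with the summit at -149 bp in both. Pileups were 21 and 29, and fold enrichments 7.29 and 9.77 (percentiles 75.9 and 83.5). Control 2 had weaker peaks besides, at -5.15 kb (pileup 13, fold enrichment 6.18) and at 0.65 kb in an intron (pileup 12, fold enrichment 5.76). Among peaks assigned to the 5 genes, this intron peak was the closest to a start that was left out of the promoter class. The upstream Cd74 peak of control 2, at -0.69 kb, was the farthest from a start within it. No peak of either CpG library had Cd40 as its nearest gene.

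**Figure D2:**
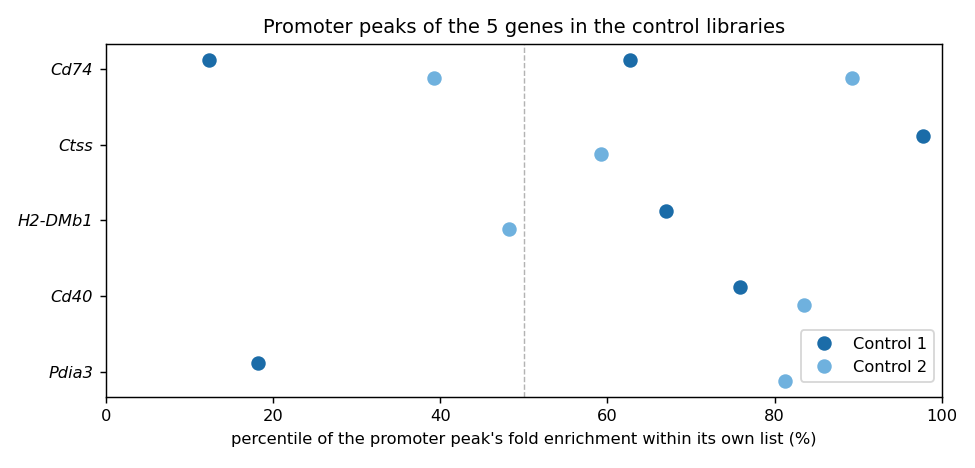
Percentile of each promoter peak's fold enrichment within its own list (horizontal axis, percent) for the 5 genes in control 1 and control 2. Cd74 has a pair of peaks per library, and the dashed line is the median of a list. The libraries are closest for Cd40, at 75.9 and 83.5, and farthest apart for Pdia3, at 18.2 and 81.3.

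The order of the 5 genes by the fold enrichment of their strongest promoter peak differed between the control libraries. In control 1 it was Ctss (14.3), Cd40 (7.29), H2-DMb1 (6.54), Cd74 (6.31) and Pdia3 (4.48). In control 2 it was Cd74 (11.5), Cd40 (9.77), Pdia3 (9.24), Ctss (6.68) and H2-DMb1 (5.96). Cd40 was the second in both, and no other gene held its place. With 1 value per library the order of neighbours cannot be separated from the spread between libraries.

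Away from promoters, CpG peaks were found at Ctss and Cd74 in places that were also bound in control. The peaks of the 5 genes formed 20 regions when overlapping peaks were merged, and 14 of them had a peak in both control libraries. Of the 14, 6 were the promoter regions, which had no promoter call in a CpG library because the genes were chosen so. Of the other 8, all at Ctss and Cd74, 4 had no peak in a CpG library and 4 had one, and 1 of these was in all 4 libraries. Over all 14 the number with no CpG peak was 10, or 9 with peaks of any annotation, a count chosen after the data were seen. Among all merged regions with a peak in both control libraries 27.4% had none in a CpG library, and nothing is read from that share beside counts that the choice of genes largely set. The 5 regions in 1 control library alone were all in control 2.

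The region in all 4 libraries lay at -3.12 kb from the Ctss start, taken as the midpoint of the merged region here and for the regions that follow. In control 1, control 2, CpG 1 and CpG 2 its pileup was 30, 56, 16 and 38, and its fold enrichment 8.87, 15.9, 4.25 and 11.1. These lay at the 87.3, 95.1, 23.3 and 88.6 percentile of their lists, so the region ranked high in 3 lists and low in that of CpG 1. By fold enrichment it was the strongest Ctss peak of control 2 and CpG 2, while in control 1 the promoter was stronger. No other peak of CpG 1 was assigned to Ctss. A second upstream region, at -7.82 kb, had pileups of 20, 51 and 17 and fold enrichments of 4.79, 11.7 and 2.99 in control 1, control 2 and CpG 2 (percentiles 26.1, 89.6 and 1.00). It ranked high in the list of control 2 alone. A region at -12.02 kb was found in control 2 only (pileup 13, fold enrichment 5.63).

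Further regions of both control libraries before Ctss lay at -8.87, -5.65 and -4.82 kb. The region at -8.87 kb had fold enrichments of 7.90 and 13.3, that at -5.65 kb 11.3 and 6.99, and that at -4.82 kb 5.94 and 4.85. No CpG library had a peak over them. Inside the gene, about 3 kb after the start, a peak with the pseudogene Hmgb1-ps5 as its nearest gene was called in control 1, control 2 and CpG 1, with pileups of 15, 19 and 10 and fold enrichments of 8.04, 9.93 and 4.75. This peak is outside the rule, and it left CpG 1 with a peak on either side of the Ctss start but none at it.

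In Cd74 the shared regions were intronic, at 2.23 and 3.37 kb after the start. The first had pileups of 20, 24 and 23 in control 1, control 2 and CpG 2, and the second 22, 27 and 22. Fold enrichments were 6.69, 5.63 and 5.79 for the first and 6.50, 7.82 and 3.16 for the second. The second region was at the 64.9, 72.2 and 1.61 percentile of the lists, near the bottom of that of CpG 2, while the first was at 69.1, 40.4 and 42.9. CpG 1 had no peak assigned to Cd74. A region at -8.53 kb was found in both control libraries (fold enrichments 4.83 and 7.26), and those at -11.57 and 1.12 kb in control 2 alone (8.90 and 8.37).

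The local background that a pileup and a fold enrichment imply was computed for these peaks, a value added after the data were seen. Its lowest value in a list was 0.989, 1.01, 1.31 and 0.886 fragments in control 1, control 2, CpG 1 and CpG 2. At the second intronic region of Cd74 it was 2.54, 2.58 and 6.28 in control 1, control 2 and CpG 2. At -7.82 kb of Ctss it was 3.39, 3.44 and 5.03 in the same order. At -3.12 kb of Ctss it was 2.49, 2.58, 3.0 and 2.51 in the 4 libraries. At the Pdia3 start it was 5.92, 3.44 and 5.03 in control 1, control 2 and CpG 2. At the first intronic region of Cd74 it was 2.14, 3.44 and 3.14 in control 1, control 2 and CpG 2. Each of these values was above the median over the peaks of its own list, which was 1.69, 1.72, 2.00 and 1.84 in control 1, control 2, CpG 1 and CpG 2. At the Ctss and H2-DMb1 promoters it was at or near the lowest value of the list, 1.09 and 1.10 for Ctss and 0.989 and 1.01 for H2-DMb1. At the Cd40 promoter it was 2.02 and 2.07 in control 1 and control 2, above the median of each list. At Cd74 it was 1.69 and 1.27 for the upstream promoter peak and 1.43 and 1.34 for the nearer one. Where no peak was called no background is given, so its part in the missing calls was not tested.

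**Figure D3:**
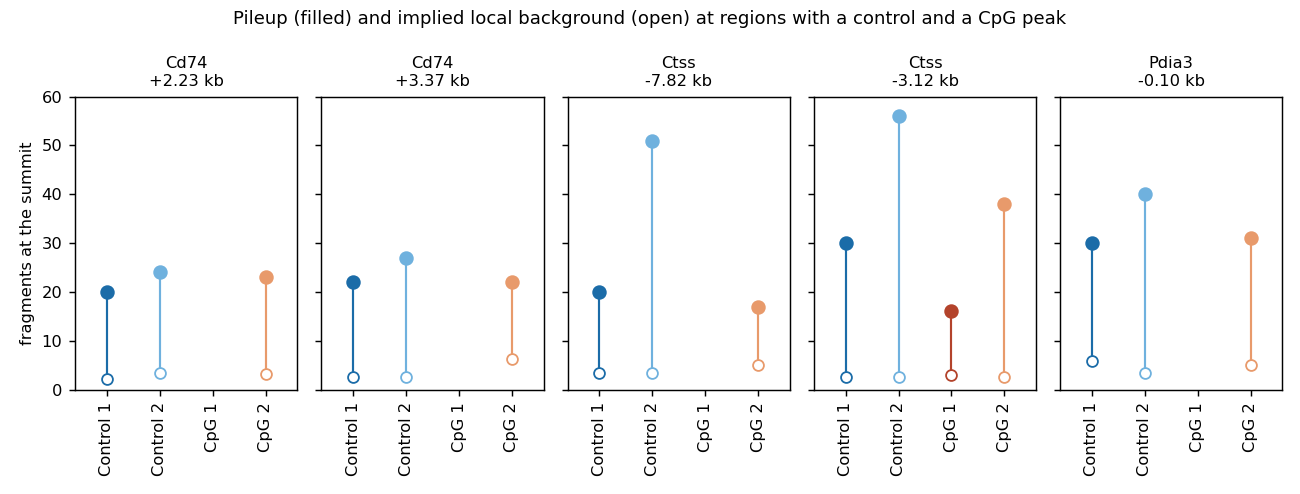
Fragments at the summit (vertical axis), as pileup (filled circles) and implied local background (open circles), in the 4 libraries at the 5 regions with a peak in a control and a CpG library. A library without a circle had no peak. In the CpG 2 list the second Cd74 region has a pileup of 22 over a background of 6.28, and in the control 1 list 22 over 2.54. The lists are not scaled to each other.

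Other peaks around the 5 genes, those not assigned to them, were counted within 50 kb on either side of each start. Around H2-DMb1, in the MHC class II region, control 1, control 2, CpG 1 and CpG 2 had 15, 16, 3 and 10 of them. Promoters of 6, 6, 2 and 4 named genes other than H2-DMb1 were bound there, among them Tap2 and Psmb8 in both control libraries and CpG 2. Around Cd74 there were 7, 12, 3 and 6 other peaks, around Ctss 3, 4, 2 and 2, around Cd40 3, 3, 1 and 3, and around Pdia3 1, 5, 0 and 2. CpG 1, which has the shortest list, was lowest in 4 of the 5 windows and level with CpG 2 at Ctss. These windows were chosen after the data were seen.

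A list of 62 genes of the pathway, including the 5, was set beside them. It was written with earlier results of these data known, and 54 of the 62 were named in the peak lists. Without the 5, promoter peaks were found at 19, 21, 12 and 19 of 49 genes in control 1, control 2, CpG 1 and CpG 2, or 38.8%, 42.9%, 24.5% and 38.8%. Of these 49 genes, 1 was control-only, 1 was CpG-only, 4 were bound in all 4 libraries and 17 in none. Among all named genes 4.36% were control-only, 0.610% CpG-only and 5.51% bound in all 4, and 12502 of 20824 were bound in none. Promoter peaks were found at 24.1%, 28.6%, 10.4% and 22.2% of all named genes in control 1, control 2, CpG 1 and CpG 2. The counts of smaller groups of genes below are to be read beside these shares.

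Of all 13 MHC class II genes named in the lists, 5, 5, 6 and 3 were bound, control libraries first and CpG 1 before CpG 2. Leaving out Cd74 and H2-DMb1, which lowers only the control counts because of how they were chosen, 3, 3, 6 and 3 of 11 were bound. H2-Eb1, which encodes a class II beta chain, was bound in all 4, with fold enrichments of 3.65 and 5.10 in the control and 6.51 and 12.6 in the CpG libraries (percentiles 5.49, 27.9, 81.0 and 91.8). By fold enrichment it ranked low in the control lists and high in the CpG lists. Its pileups were 15 and 26 in the control and 15 and 24 in the CpG libraries. The part of the local background in these ranks was not tested. Rfx5, a subunit of the factor that binds class II promoters, was CpG-only, with fold enrichments of 4.75 and 6.24 and pileups of 18 and 17. Control 1 had a peak of another class with Rfx5 as nearest gene (fold enrichment 5.03), and by an overlap of 1 bp with a control peak Rfx5 was no longer CpG-only. H2-DMb2, the paralogue next to H2-DMb1, had promoter peaks in control 1, control 2 and CpG 1, with fold enrichments of 13.8, 12 and 3.50. Ciita, the class II master regulator, had a promoter peak in control 2 alone (6.03) and other nearest peaks in all libraries.

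Of the genes of class I, 4, 3, 3 and 3 of 9 were bound in control 1, control 2, CpG 1 and CpG 2. B2m, the gene of the class I light chain, was bound in all 4, with fold enrichments of 8.55, 13.4, 4.84 and 7.73 (percentiles 86.1, 92.7, 44.1 and 71.7), as was the class I gene H2-Q4 (7.63, 4.53, 4.86 and 6.76). For peptide supply and loading other than Pdia3, 4, 6, 2 and 7 of 8 were bound. Calr, the chaperone gene whose product works with that of Pdia3, was bound in all 4, with fold enrichments of 6.64, 16.7, 4.30 and 21.1. Its pileup was 45 and 116 in the control and 29 and 105 in the CpG libraries. Canx, the gene of the related calnexin, had a promoter peak in control 2, CpG 1 and CpG 2 (7.63, 5.50 and 11.3). Control 1 had a peak of another class with Canx as nearest gene (fold enrichment 4.89). By a nearest peak within 1 kb of the start, or by overlap with a promoter peak of another library, Canx was bound in every library.

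Of the other lysosomal processing genes, 3, 2, 0 and 2 of 5 were bound. Of the other costimulation and adhesion genes, 3, 3, 0 and 1 of 11 were bound, the single CpG call being Icam1 in CpG 2. Tnfsf9, the gene of the 4-1BB ligand, was control-only like Cd40, with fold enrichments of 9.12 and 7.46, and had no nearest peak in a CpG library. In control 1 that promoter peak had another nearest gene, as the peak nearest to Tnfsf9 had a fold enrichment of 3.67. By a nearest peak within 1 kb of the start Tnfsf9 was not control-only, unlike Cd40. Cd80, Cd86 and Cd83 had no promoter peak in any library, while Cd86 was the nearest gene of 6, 12, 4 and 6 peaks and Cd83 of 12, 18, 5 and 12. By a nearest peak within 1 kb of the start, however, Cd86 was bound in every library. Of the 5 TRAF genes, whose products carry CD40 signals, 2, 4, 1 and 3 were bound. The numbers of control-only genes depended on which libraries were required. Without control replicate 1, control replicate 2, CpG replicate 1 and CpG replicate 2 there were 5, 4, 3 and 8 control-only genes besides the 5, and 1, 3, 4 and 3 CpG-only genes. The control-only share of all named genes was 10.7%, 8.50%, 4.91% and 12% in the same order.

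**Figure D4:**
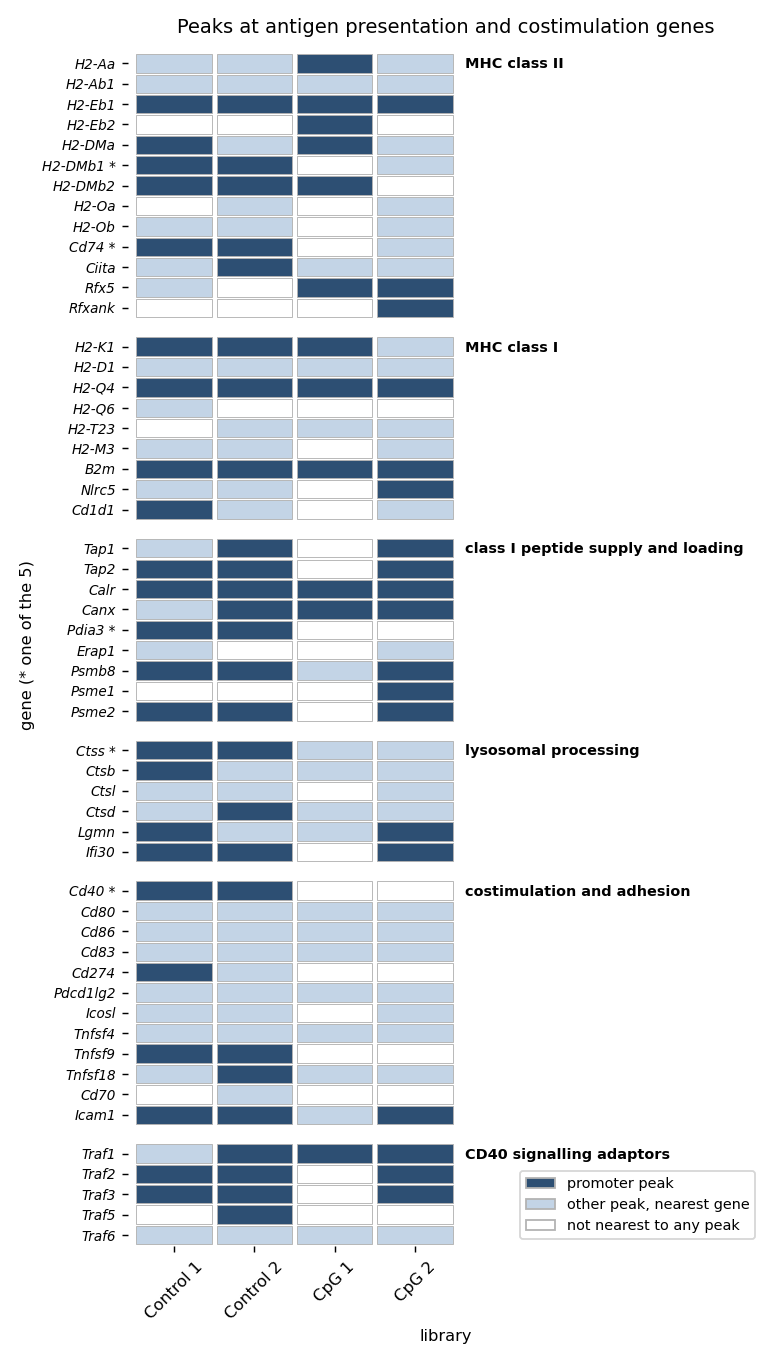
Named genes of the pathway list (vertical axis, grouped by role, an asterisk on the 5 genes) in the 4 libraries (horizontal axis). Dark cells are genes with a promoter peak, light cells genes that are nearest to another peak, and white cells genes nearest to none. H2-Eb1, H2-Q4, B2m and Calr are dark in all 4 libraries, and Rfx5 only in the CpG libraries.

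Other named genes were ranked by how alike their promoter peaks were to each of the 5, as the mean absolute difference over 4 libraries in the percentile of the strongest promoter peak, with 0 where there was none. The most alike were Gm49704, Txnip and Prdm10 for Cd74 (0.506, 1.03 and 1.14 percentage points), and Gm43372, Grpel2 and Tmem50a for Ctss (1.70, 1.82 and 1.85). For H2-DMb1 they were Foxp1, Ago2 and 2500004C02Rik (0, 0.186 and 0.612), and for Cd40 Rrbp1, Tbl3 and Tbc1d23 (0.572, 0.609 and 0.749). For Pdia3 they were Emd, Tsc22d3 and Cxcr4 (0.649, 1.05 and 1.08). Rrbp1 and Emd differed from the rest in having a weak promoter peak in CpG 2, at the 1.78 and 2.55 percentile. None of these 15 genes is in the pathway list. The likeness rests on the percentiles of 2 control libraries, since nearly all CpG values are 0.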

How the data were processed

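Anti-IRF5 CUT&Tag came as a deposited peak list for each of 4 libraries and for each of 2 conditions. Per the submitters' processing notes, the tools were MACS2 2.1.0 and ChIPseeker for peaks, and fastp 0.20.0 with BWA 0.7.12 for reads. The build and the way replicates were combined are not given in the sources used here. Each deposited library peak has a pileup signal, a fold enrichment (a ratio) and a −log10 p and −log10 q, whose damaged headers were read from column order and values. The pileup was whole for 100% of peaks in the 4 single lists. Lines continuing an annotation cell were skipped, and the 21 assembled nuclear chromosomes were used. Distances run from the start to a peak's midpoint, as in the files, which follows from 100% of peaks.

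Peaks were assigned by nearest gene or promoter class, and regions merged from 1 bp of overlap, with Python 3.11.15 and pandas 2.3.3. The functions were tested on simulated data. No model was fitted and no test run, since lists hold no comparable read counts. The members and lists were chosen with earlier results of these data known. Named were the 5 genes, pathway genes that were control-only, CpG-only or bound in all 4 libraries, and the 3 genes most alike to each of the 5. Other names in the text were chosen after their values were seen. The 4 IgG libraries have no list of their own here and were not analysed. Alternatives covered gene assignment, list length, thresholds, the lists of whole conditions and each library left out.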

Additional observations from a re-analysis of the deposited data

How the results depend on the processing

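All 5 genes were control-only by a nearest peak within 1 kb, by −log10 q of at least 5 and in the lists of whole conditions. By nearest peak, Pdia3 counts as control-only because the CpG 2 peak over its start is assigned to Catsper2. The 5 genes were also control-only without any 1 library (5 to 5), which their choice fixed in advance. They were 4 by overlap with a promoter peak of another library, where Pdia3 dropped out, and 4 by −log10 p of at least 10, where H2-DMb1 did. They were 2 by any nearest peak (Cd40 and Pdia3) and 2 in lists cut to their 13553 strongest peaks by fold enrichment (Cd74 and Cd40). Ctss and H2-DMb1 in control 2 and Pdia3 in control 1 then lost their peak. That Pdia3 peak had a pileup of 30 but a fold enrichment of 4.48, over an implied background of 5.92. No paired analysis was possible because the results come from no test.

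The other counts moved more. Control-only pathway genes besides the 5, CpG-only pathway genes and those bound in every list were 1, 1 and 4. By any nearest peak they were 2, 0 and 22, and control-only and CpG-only genes over all named genes were 1686 and 329 in place of 908 and 127. Within 1 kb the control-only and every-list counts were 3 and 7. The 3 were Tap2, Traf2 and Traf3, without Tnfsf9, and Calr took the place of Rfx5 as the CpG-only gene. The counts by overlap were 2 and 8 at either minimum, with 0 CpG-only at 1 bp. In lists of equal length CpG-only and every-list pathway genes were 2 and 2, and the counts over all named genes 437 and 315. Peaks nearest to the 5 genes were then 21 in control and 2 in CpG, in place of 33 and 6, counts that include the promoter peaks by which the genes were chosen. At −log10 p of at least 10 control-only pathway genes were 3, CpG-only ones 0, CpG-only genes over all named genes 74 and nearest CpG peaks 2. In the lists of whole conditions the counts were 10, 6 and 8, and 2682 and 623 over all named genes. Leaving out 1 library gave 3 to 8, 1 to 4 and 4 to 11, and 1023 to 2491 and 201 to 758 over all named genes, where fewer required libraries raise the counts by construction. The cause of the other shifts was not tested.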
